A study of Mus musculus with 7 samples.

Results

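The phase II conjugation enzymes examined here are the UDP-glucuronosyltransferases (UGT), sulfotransferases (SULT), cytosolic glutathione S-transferases (GST) and microsomal glutathione S-transferases (MGST). Members were chosen by gene symbol alone, as the protein-coding genes of the mm9 annotation whose symbols begin Ugt1a, Ugt2a, Ugt2b, Ugt3a, Sult, Gsta, Gstm, Gstp, Gstt, Gsto, Gstk, Gstz or Mgst. This gave 62 genes of 22367, namely 20 UGT, 17 SULT, 22 cytosolic GST and 3 MGST genes. The label cytosolic GST is used here for every Gst symbol. It thus takes in Gstk1, whose enzyme is not cytosolic, and Gstm2-ps1, annotated as protein-coding under a pseudogene symbol. Many lie in clusters, so members whose gene bodies extended by 50 kb overlap were joined into 1 locus. That gave 25 loci, of which 10 hold 47 of the genes and 15 hold a single gene. Sites bound by the vitamin D receptor (VDR) had been mapped by chromatin immunoprecipitation and sequencing (ChIP-seq) in epithelial cells released with EDTA from duodenum and jejunum of wild-type mice on chow. The vehicle group comprised 3 libraries from mice aged 8 weeks that received vehicle. The hormone group comprised 3 libraries from mice of the same age that received 1,25(OH)2D3, the active form of vitamin D, in a dose of 10 ng for every g of body weight. Tissue was collected 1 h after treatment in both groups. The labels leave unstated whether the libraries of a group are separate mice, so the spread given below is that between libraries.

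Phase II enzymes attach a polar group to drugs, bile acids, steroids, bilirubin and dietary chemicals, which makes them easier to export. UGT enzymes add glucuronic acid, SULT enzymes add sulfate from the donor PAPS, and GST enzymes add glutathione. The epithelium of the proximal small intestine is a major site of such first-pass conjugation. VDR is a ligand-activated nuclear receptor that binds as a heterodimer with RXR, classically to a DR3 element, a direct repeat of hexamer half-sites separated by 3 bases.

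The sequences below come from regions on which the comparisons turn. Peaks of the 6 libraries that overlapped by at least 1 bp were merged into a region. A hormone-only region had a peak in each of the 3 1,25(OH)2D3 libraries and in 0 of 3 vehicle libraries, and a vehicle-only region the reverse. Each sequence spans 100 bases to each side of a region's centre, on build mm9 (NCBI 37), 5′ to 3′ on the strand of its element. Capitals mark the half-sites of the best DR3 match, except in the Mgst2 sequence, where they mark those of a DR4 match (spacer of 4 bases). The Sult2b1 and Gstp1 regions stood highest in the lists among regions with a DR3 match near SULT and cytosolic GST genes. Both were found in all 6 libraries. The Mgst2 region is shown as the vehicle-only one. The other 4 are shown because the region lies within 1 kb of an annotated start of the named gene and holds a DR3 match. Regions chosen by the same rules near Ugt1a10, Mgst1 and Gstk1 are not printed. A DR3 match was thus a condition of choice for every sequence but that of Mgst2. The Gstm1 match has 0 mismatches to the consensus, and each other match has 1.
Sult2b1 intron, all 6 libraries, chr7:53012762-53012962, minus strand: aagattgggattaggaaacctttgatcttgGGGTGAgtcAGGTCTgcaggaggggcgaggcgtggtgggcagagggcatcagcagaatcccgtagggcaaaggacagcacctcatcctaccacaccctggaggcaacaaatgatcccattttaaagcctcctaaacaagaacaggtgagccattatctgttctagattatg
Gstp1 intron, all 6 libraries, chr19:4036418-4036618, minus strand: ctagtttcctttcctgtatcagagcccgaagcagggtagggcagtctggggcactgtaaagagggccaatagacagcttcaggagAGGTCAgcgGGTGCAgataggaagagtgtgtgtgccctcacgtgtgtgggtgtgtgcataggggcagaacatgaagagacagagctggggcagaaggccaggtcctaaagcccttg
Mgst2 intron, vehicle-only, chr3:51475189-51475389, plus strand: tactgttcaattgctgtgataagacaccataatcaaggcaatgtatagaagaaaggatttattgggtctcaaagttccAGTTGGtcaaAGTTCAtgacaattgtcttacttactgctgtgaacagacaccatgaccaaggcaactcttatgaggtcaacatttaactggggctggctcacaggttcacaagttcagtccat
Gstm1 intron near an alternative start, hormone-only, chr3:107819028-107819228, plus strand: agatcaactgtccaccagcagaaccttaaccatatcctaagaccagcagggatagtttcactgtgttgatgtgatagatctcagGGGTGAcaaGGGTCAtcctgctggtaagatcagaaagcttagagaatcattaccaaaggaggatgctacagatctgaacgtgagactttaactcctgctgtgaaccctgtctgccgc
Sult1a1 upstream of the start, hormone-only, chr7:133820441-133820641, minus strand: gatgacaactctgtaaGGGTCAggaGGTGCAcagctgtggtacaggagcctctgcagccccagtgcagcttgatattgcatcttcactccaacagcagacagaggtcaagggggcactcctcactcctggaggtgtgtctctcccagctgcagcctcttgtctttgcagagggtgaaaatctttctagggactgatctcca
Ugt1a6a near an alternative start, all 3 1,25(OH)2D3 libraries and vehicle replicate 3, chr1:90031154-90031354, plus strand: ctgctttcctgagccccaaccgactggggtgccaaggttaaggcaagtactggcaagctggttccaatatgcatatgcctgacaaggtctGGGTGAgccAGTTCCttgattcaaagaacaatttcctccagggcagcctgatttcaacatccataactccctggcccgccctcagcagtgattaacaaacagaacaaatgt
Ugt2b35 upstream of the start, all 3 1,25(OH)2D3 libraries and vehicle replicates 2 and 3, chr5:87429607-87429807, plus strand: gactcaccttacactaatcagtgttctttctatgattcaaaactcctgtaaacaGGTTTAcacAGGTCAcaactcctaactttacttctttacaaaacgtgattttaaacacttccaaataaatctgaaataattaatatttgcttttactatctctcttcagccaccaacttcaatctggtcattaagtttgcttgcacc

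The libraries differed in depth and in peak number in ways that touch every count below. Replicates 1 and 2 of each group held between 15991198 and 19733260 sequence tags, and the pair labelled replicate 3 held 68560701 (vehicle) and 66524392 (1,25(OH)2D3). The vehicle lists held 8755, 14887 and 48424 peaks and the 1,25(OH)2D3 lists 25509, 30390 and 41721, so the deep vehicle list was the longest. Peaks in the lists took 2.58%, 4.81% and 8.10% of vehicle tags and 11.9%, 15.9% and 18.96% of 1,25(OH)2D3 tags. The lists hold no expression values, so the labelled cell type was not checked against markers. The part played by depth in the member counts was not tested, and results are given with and without vehicle replicate 3 where that library moved them.

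VDR peaks near the conjugation genes were more numerous on average after 1,25(OH)2D3, in each of the 4 families. Within 50 kb of any member, the vehicle libraries held 59, 89 and 141 peaks and the 1,25(OH)2D3 libraries 139, 157 and 178 (replicates 1, 2 and 3). The hormone libraries averaged 158 ± 19.5 peaks and the vehicle libraries 96.3 ± 41.5 (SD, n = 3 each). The groups overlapped at 1 point, since vehicle replicate 3 stood above 1,25(OH)2D3 replicate 1. In the shallow replicates 1 and 2 the means were 148 and 74, and in replicate 3 the counts were 178 and 141. Over the whole genome the deep pair ran the other way, with 41721 peaks after hormone and 48424 after vehicle. The log2 ratio of the group means was 0.71 near members and 0.44 over all peaks. That order depended on the deep pair. In replicates 1 and 2 alone the means over all peaks were 27949.5 with hormone and 11821 with vehicle, a larger ratio than that of 148 to 74 near members.

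**Figure D1:**
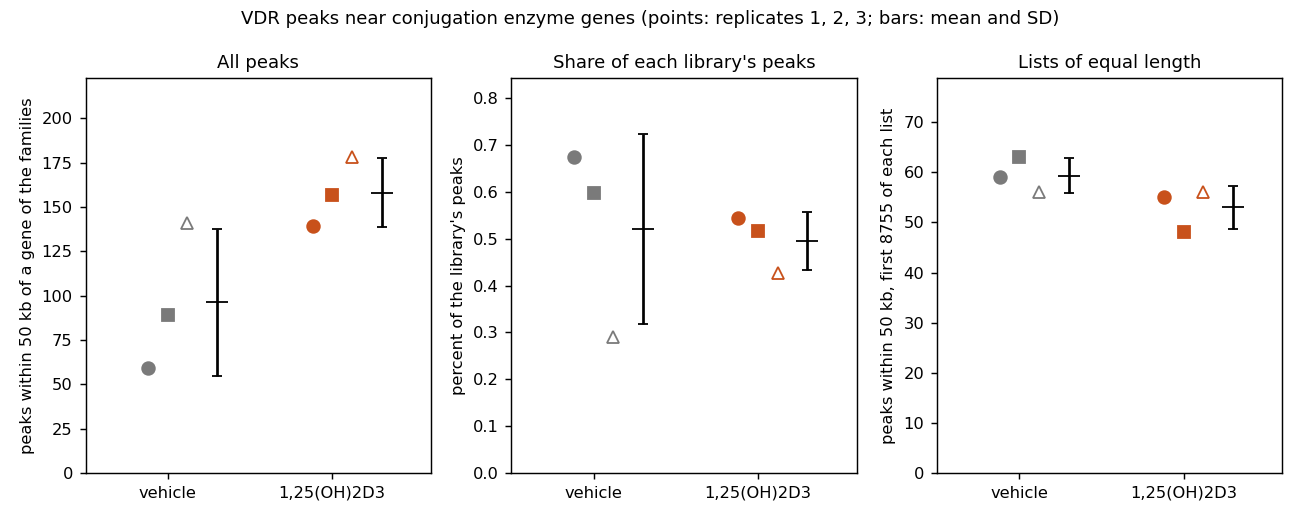
Number of VDR peaks within 50 kb of any conjugation gene (peaks per library) and the share of each library's peaks that lie there (percent), by group; points are replicates 1, 2 and 3 and bars the mean with its SD. Peak numbers ran from 59 to 141 with vehicle and from 139 to 178 with 1,25(OH)2D3, with 1 vehicle library above the lowest 1,25(OH)2D3 library, and the shares of the groups overlapped too.

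As a share of each library's own peaks, the peaks near members made up 0.674%, 0.598% and 0.291% with vehicle and 0.545%, 0.517% and 0.427% with 1,25(OH)2D3. The member windows cover 4.67 Mb, or 0.176% of chromosomes 1 to 19, X and Y. Every library thus held more of its peaks near these genes than the length of the windows alone would give. The share in windows around all protein-coding genes was not computed, so this is not shown to be particular to these families. The hormone libraries averaged 0.496% ± 0.0618 and the vehicle libraries 0.521% ± 0.203 (SD, n = 3 each), and the groups overlapped.

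By family, the cytosolic GST genes had the highest mean with hormone (60), and the UGT genes with vehicle (35.3, against 34.3 for cytosolic GST). The 22 cytosolic GST genes had 20, 34 and 49 peaks with vehicle and 52, 59 and 69 with 1,25(OH)2D3, so the groups did not overlap. The 3 MGST genes had 6, 8 and 12 against 16, 16 and 18, again without overlap. The UGT genes had 23, 34 and 49 peaks with vehicle and 44, 51 and 57 with hormone, and the SULT genes 10, 14 and 34 against 28, 33 and 37. In both of these families vehicle replicate 3 lay inside the range of the hormone libraries.

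**Figure D2:**
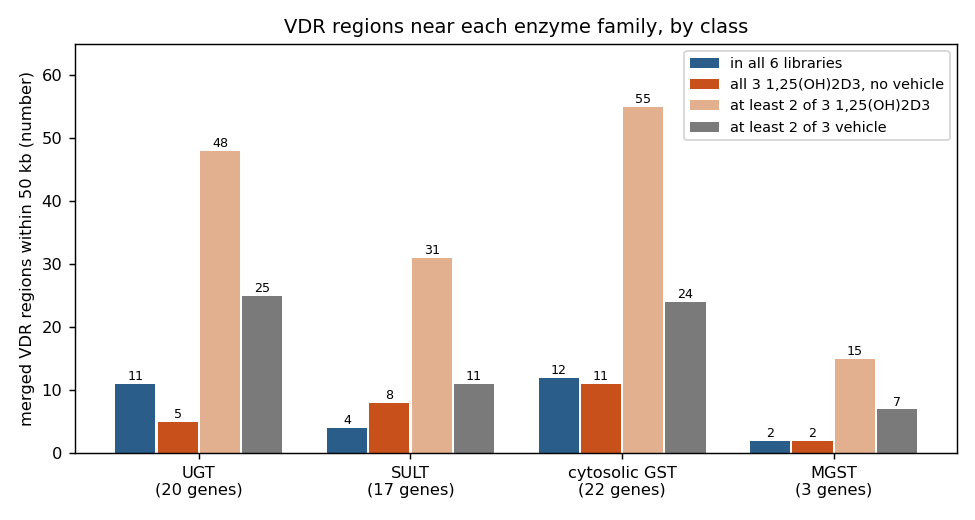
Number of merged VDR regions within 50 kb of each enzyme family, by class; a region in all 6 libraries or in all 3 1,25(OH)2D3 libraries is also counted among those in at least 2 of 3. UGT genes had more regions in all 6 libraries (11) than hormone-only regions (5), and SULT genes had fewer (4 and 8).

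The Ugt1a locus, at chr1:89951963-90116577, had the highest mean peak number of all 25 loci after 1,25(OH)2D3. Its 9 genes each have their own first exon and share the downstream exons, so the gene models overlap and most peaks count for several of them. The vehicle libraries held 10, 13 and 14 peaks there and the 1,25(OH)2D3 libraries 21, 22 and 22. Every hormone library lay above every vehicle library, with means of 21.7 ± 0.577 and 12.3 ± 2.08 (SD, n = 3 each). Leaving out any 1 library kept the difference between 8.17 and 10.2 peaks. Per 100 kb of window the locus had 8.19 peaks with hormone and 4.66 with vehicle. The values over the whole genome, stretches far from genes included, were 1.23 and 0.905.

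Of the 33 merged regions at Ugt1a, 21 were found in at least 2 of 3 1,25(OH)2D3 libraries, 4 in all 6 libraries and 3 were hormone-only. The hormone-only regions lay in the intron 5.28 kb past the start of Ugt1a9, 4.74 kb upstream of Ugt1a2, and 15.7 kb past the start of Ugt1a1 at the start of the neighbour Heatr7b1. A peak of vehicle replicate 3, at chr1:90092589-90092869, lay directly beside the one upstream of Ugt1a2 without overlapping it. Ugt1a1, the bilirubin-conjugating enzyme, had 2, 3 and 5 peaks with vehicle and 7, 6 and 8 with hormone. These were the lowest counts of the 9 genes, but its gene model lies inside all the others, so they could not be higher. The region nearest to the Ugt1a1 start, at chr1:90103548-90103935, lay 4.79 kb upstream. It was found in all 3 hormone libraries and in vehicle replicates 2 and 3, at a mean list position of 98.1 with hormone (100 is the first peak of a list; what the lists are sorted on is not stated).

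Among the Ugt1a genes, 4 had a region centred within 1 kb of an annotated start in at least 2 of 3 hormone libraries. The region at Ugt1a9 and 1 of 2 at Ugt1a6a (shown above) were in all 3 hormone libraries and in at least 1 vehicle library. The region at Ugt1a6b was in all 3 hormone libraries and vehicle replicates 1 and 2, and that at Ugt1a7c was in 1,25(OH)2D3 replicates 2 and 3 alone. The Ugt1a6 enzymes conjugate small planar phenols. Ugt1a6a and Ugt1a6b overlap on the map and are closely similar in sequence, so their assignment is uncertain.

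The Ugt2 genes, whose products conjugate steroids, bile acids and drugs, fall into adjacent loci on chromosome 5. The locus from Ugt2b34 to Ugt2b5 held 4, 12 and 13 peaks with vehicle and 12, 14 and 16 with hormone, and the groups overlapped. A region 0.178 kb upstream of Ugt2b35, whose sequence is shown above, was in 5 of 6 libraries. Ugt2b34 had a hormone-only region in its intron with both a DR3 and a DR4 match. Close to that region, without overlapping it, lay another at chr5:87331224-87331661, found in vehicle replicate 2 and 1,25(OH)2D3 replicate 2. The locus from Ugt2b37 to Sult1e1 held 9, 10 and 25 peaks with vehicle and 14, 19 and 22 with hormone. Vehicle replicate 3 was here the highest of all 6 libraries, and without it the difference of the means went from 3.67 to 8.83 peaks. Dropping vehicle replicate 1 instead left 0.833, dropping vehicle replicate 2 left 1.33, and dropping 1,25(OH)2D3 replicate 3 left 1.83. Within this locus a region 0.05 kb upstream of Ugt2a3, a UGT abundant in intestine, was in all 3 hormone libraries and vehicle replicate 2. Ugt3a1 and Ugt3a2, on chromosome 15, had 5 peaks in vehicle replicate 3 and 0 in the other libraries.

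Among the sulfotransferases, Sult2b1 had the clearest separation. Sult2b1, which sulfates cholesterol and other sterols, lies at chr7:52985353-53014982. The vehicle libraries held 5, 7 and 9 peaks and the 1,25(OH)2D3 libraries 13, 13 and 12, with means of 7 ± 2 and 12.7 ± 0.577 (SD, n = 3 each). Its window had the highest density of peaks of all loci with hormone, at 9.77 per 100 kb, against 5.40 with vehicle. The window also holds other genes, and several of its regions lay nearer to the starts of neighbours such as Dbp, Rpl18, Fam83e and Lmtk3. The counts and the density are thus those of the window. A hormone-only region at chr7:53014833-53015164 lay 0.016 kb upstream of the Sult2b1 start. The intron region shown above, 2.12 kb past the start, and another 11.4 kb upstream were found in all 6 libraries, at mean positions of 94.9 and 98.1 in the hormone lists. Other hormone-only regions lay 14.1 kb upstream and at the starts of the neighbours Rpl18 and Sphk2.

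**Figure D3:**
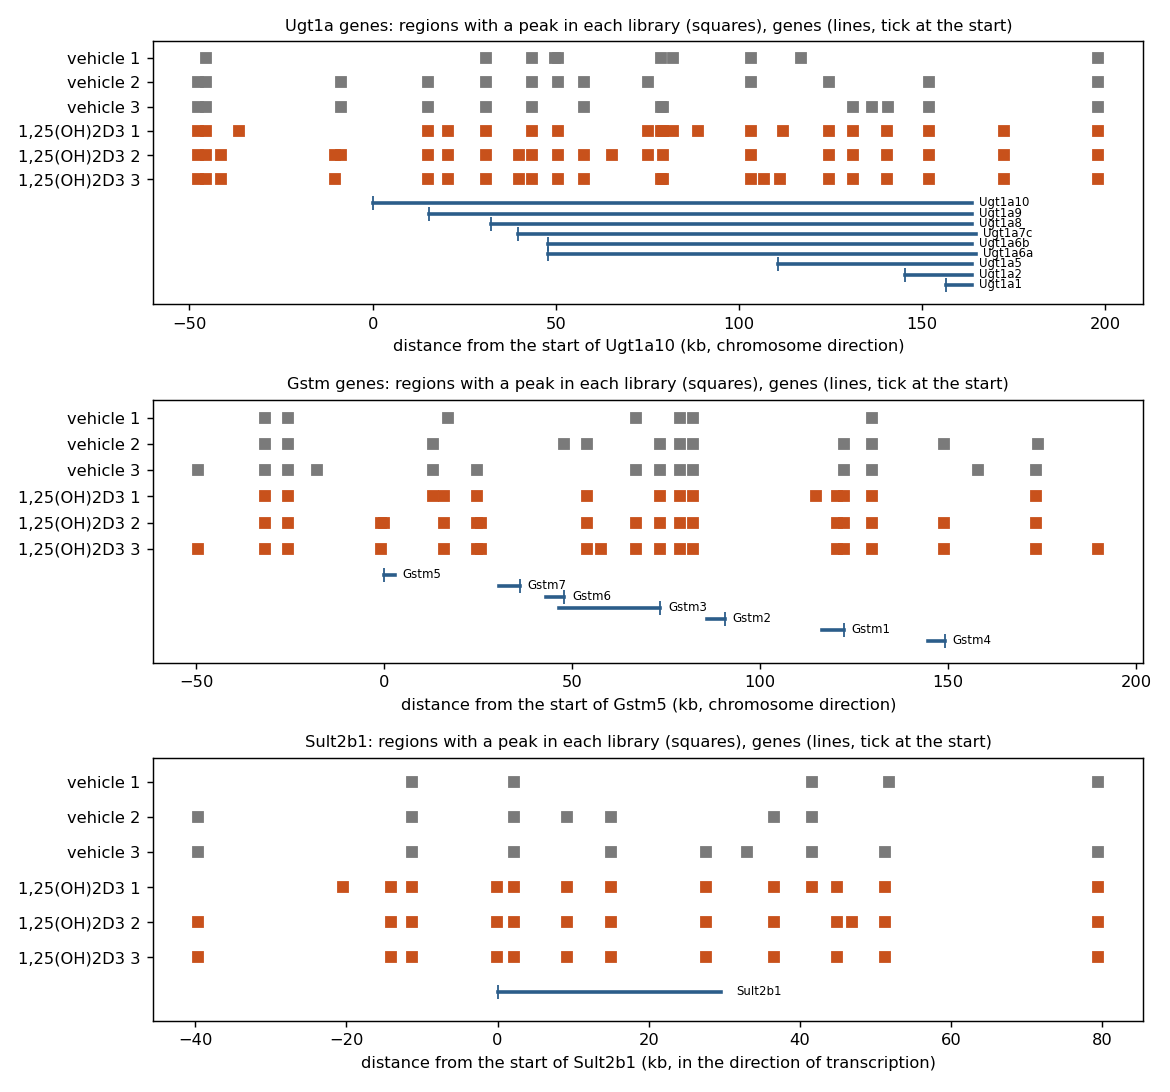
Position of merged VDR regions (squares, one row per library) along the Ugt1a, Gstm and Sult2b1 loci, as distance in kb from the start of Ugt1a10, Gstm5 or Sult2b1; lines are gene bodies with a tick at the start. The Ugt1a rows hold 21 or 22 peaks with 1,25(OH)2D3 and 10 to 14 with vehicle, and the square at the Sult2b1 start appears in the 1,25(OH)2D3 rows only.

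Sult1a1, the main phenol sulfotransferase, held 3, 2 and 2 peaks with vehicle and 5, 7 and 8 with hormone. Its 3 hormone-only regions included the one 0.595 kb upstream of its start, whose sequence is shown above and which stood at a mean position of 30.0 in the lists. The other hormone-only pair lay 41.8 and 46.2 kb past the start, nearer to Nupr1. Sult1d1, which acts on catecholamines and other phenols, had a region 0.069 kb upstream of its start in all 3 hormone libraries and vehicle replicates 2 and 3. Hormone-only regions lay on either side of it, 5.88 kb past the start and 4.78 kb upstream. A peak of vehicle replicate 3, at chr5:87991527-87991807, lay close to the former without overlapping it. Sult1d1 and the oestrogen sulfotransferase gene Sult1e1 each had 0, 1 and 8 peaks with vehicle and 3, 5 and 5 with hormone. Sult1c2 had 0, 1 and 4 peaks against 5, 4 and 5, with a region at its start in all 3 hormone libraries and vehicle replicate 3.

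Sult1b1, a thyroid hormone and phenol sulfotransferase in the locus of Sult1d1, had 0, 2 and 8 peaks with vehicle and 4, 5 and 6 with hormone, and vehicle replicate 3 was again the highest.

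The sulfotransferases not yet named had at most 4 peaks in any library. Sult5a1 held 2, 2 and 2 peaks with vehicle and 1, 3 and 4 with hormone. Sult6b1 had 3 and 2 peaks in the deep vehicle and hormone libraries and 0 in the shallow ones, and Sult1c1 had 2 in vehicle replicate 3 alone. The 6 Sult2a genes, which encode hydroxysteroid and bile acid sulfotransferases, lie in a window of 730.9 kb with 1 peak in all, near Sult2a6 in vehicle replicate 3. They are closely similar in sequence, and how the alignment treated reads with several possible origins is not given in the sources used here. Sult3a1, Sult4a1 and the single-gene GST locus Gstm2-ps1 had no peak in any library.

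The Gstm cluster, at chr3:107698739-107847812, was the GST locus with the most peaks. It encodes the mu-class enzymes, which conjugate glutathione to electrophiles such as epoxides and aromatic halides. The vehicle libraries held 7, 12 and 14 peaks and the hormone libraries 14, 17 and 19, so the groups met at 14. The cluster held 5 regions found in all 6 libraries, the most of any GST locus. The one nearest the head of the lists, at chr3:107780676-107781016, lay 8.53 kb past the start of Gstm2 at a mean position of 99.6 in the hormone lists.

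Among the Gstm genes, 4 had such a region at a start in at least 2 of 3 hormone libraries. Gstm1 had 2, the hormone-only intron region shown above and another 0.059 kb upstream of its first start in all 3 hormone libraries and vehicle replicates 2 and 3. The region at the Gstm3 start, 0.028 kb past it, was in the same 5 libraries at a mean position of 96.1. Regions at the starts of Gstm4 and Gstm5 were in 1,25(OH)2D3 replicates 2 and 3, and that at Gstm4 also in vehicle replicate 2.

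The alpha-class locus of Gsta4, Gsta1 and Gsta2, at chr9:78039773-78203595, had non-overlapping groups. It held 5, 7 and 12 peaks with vehicle and 14, 13 and 16 with hormone. Gsta4, which conjugates the lipid peroxidation product 4-hydroxynonenal, had a region 0.161 kb past its start in all 3 hormone libraries and vehicle replicates 2 and 3. A hormone-only region lay 4.03 kb upstream of Gsta1, between regions 13.5 and 1.92 kb upstream of it that were found in all 6 libraries. Gsta3, in its own locus on chromosome 1, had 1, 0 and 6 peaks with vehicle and 2, 5 and 5 with hormone.

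Gstp1 and Gstp2, the pi-class pair on chromosome 19, held 4, 7 and 4 peaks with vehicle and 7, 9 and 13 with hormone. The Gstp1 intron region at chr19:4036374-4036663, 1.40 kb past the start, was found in all 6 libraries. At a mean position of 99.8 in the hormone lists it stood nearer the head of those lists than any other region near a member. A region 0.169 kb upstream of Gstp2 was in 1,25(OH)2D3 replicates 2 and 3 and vehicle replicate 2. The pair is closely similar in sequence, so peaks within the gene bodies may be misassigned between them.

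Gstk1, the kappa-class enzyme of mitochondria and peroxisomes, held 1, 3 and 3 peaks with vehicle and 6, 7 and 6 with hormone. A region 0.143 kb past its start, in the first coding exon, was in 1,25(OH)2D3 replicates 2 and 3 and no vehicle library. Its 3 hormone-only regions lay 15.9, 18.8 and 53.4 kb past the start, each within 1 kb of a neighbour's start (Tmem139, Casp2 and Clcn1). Gsto1, an omega-class enzyme, had a hormone-only region in its intron 0.806 kb past its start, although the Gsto1 and Gsto2 locus had no more than 2 peaks in any library. The Gstt genes held 2, 3 and 7 peaks against 7, 5 and 7. Gstz1, which acts in tyrosine breakdown, had a region at its start in 1,25(OH)2D3 replicates 2 and 3 and vehicle replicate 3, and no more than 1 peak in any library.

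The microsomal enzymes, integral membrane proteins that include enzymes of leukotriene synthesis, had peaks in nearly every library. Mgst3 held 3, 3 and 5 peaks with vehicle and 9, 8 and 7 with hormone, and the groups did not overlap. Its hormone-only region lay at the neighbour Aldh9a1, 25.6 kb from the Mgst3 start. Mgst1 held 0, 2 and 3 against 4, 3 and 5, with a hormone-only region 37.1 kb upstream that holds a DR3 match. Mgst2 held 3, 3 and 4 against 3, 5 and 6.

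Mgst2 was the only member with a vehicle-only region, at chr3:51475136-51475442 in the intron 11.0 kb past its start and within 1 kb of an alternative start. Such a region stood within 50 kb of 0.259% of all protein-coding genes and of 1 of the 62 members (1.61%). It stood at a mean position of 89.2 in the vehicle lists. A neighbouring region at chr3:51474545-51474853 was found in all 6 libraries, at a mean position of 96.3 with hormone. A further region 0.695 kb past the Mgst2 start was in all 3 hormone libraries and vehicle replicates 2 and 3. The vehicle-only sequence held no DR3 match with at most 1 mismatch, and held the DR4 match shown above. The same pattern, no such DR3 match and a DR4 match with 1 mismatch, was in the neighbouring region found in all 6 libraries. Of the other motifs described below, the vehicle-only sequence held GATA and CDX motifs without mismatch and an ER6 match with 1.

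**Figure D4:**
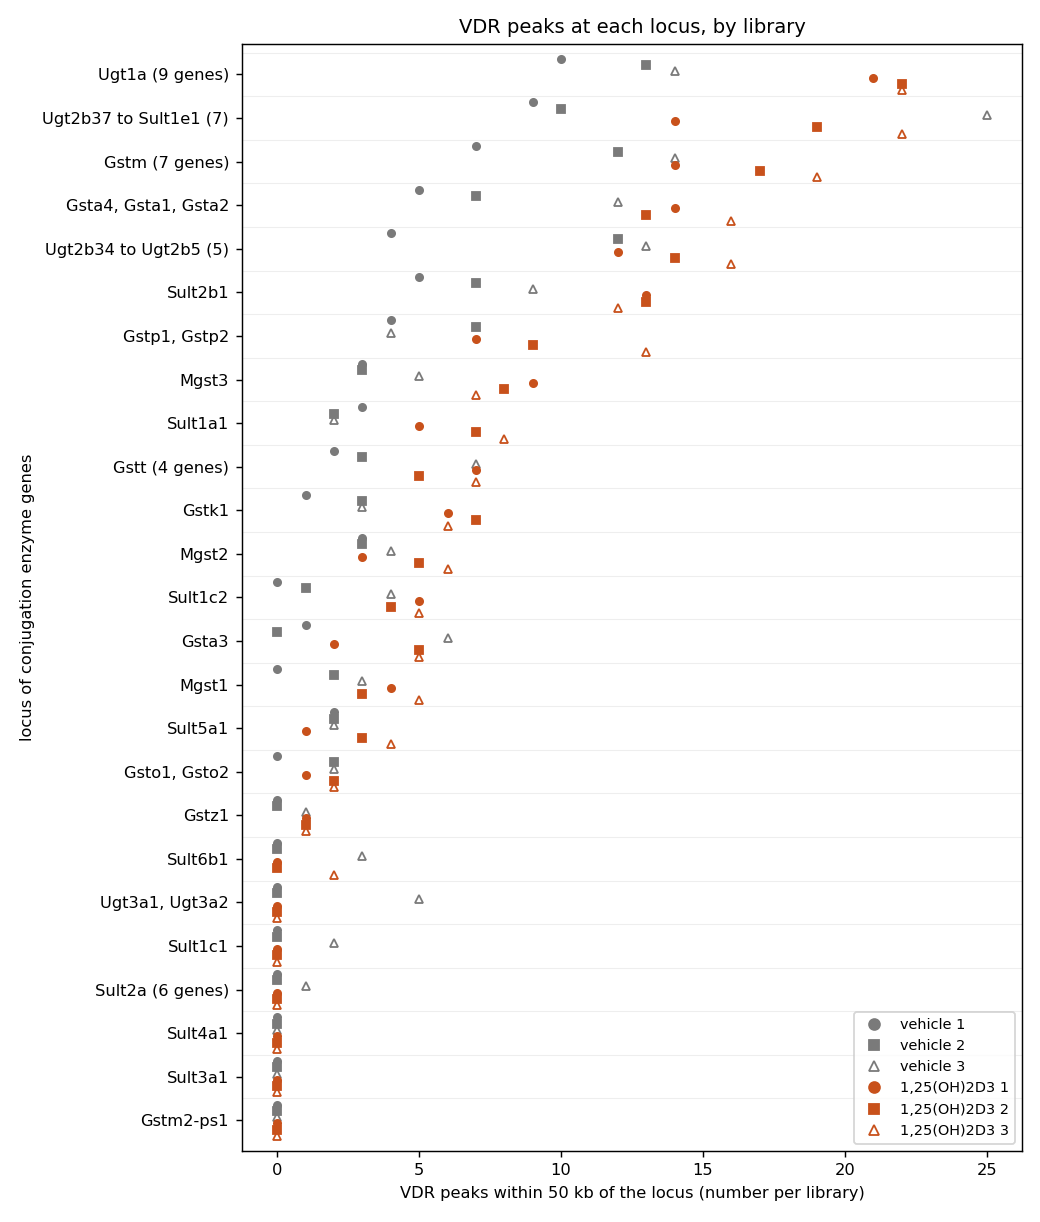
Number of VDR peaks within 50 kb of each locus in each library, with vehicle in grey and 1,25(OH)2D3 in orange and the libraries of a locus drawn one under another. The groups do not overlap at Ugt1a, the Gsta4 locus, Sult2b1, Mgst3, Sult1a1 and Gstk1, and vehicle replicate 3 is highest at the locus from Ugt2b37 to Sult1e1 with 25 peaks.

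Counted gene by gene, every 1,25(OH)2D3 library had more peaks than every vehicle library at 20 of 62 members (32.3%). The same held for 16% of all protein-coding genes. The 20 comprised the 9 Ugt1a genes, Sult2b1, Sult1a1, Mgst3, Gstk1, Gstm6, Gstm3, Gstm2, Gstm4, Gsta4, Gsta1 and Gstt4. The 9 Ugt1a genes share most of their peaks, and counted by locus the separation held at 6 of 25. No share was computed for loci formed in the same way from all genes. No member had every vehicle library above every hormone library, against 0.0447% of all genes. Each of the 20 had an exact two-sided permutation p of 0.1, the smallest that 3 against 3 libraries allow, and an adjusted p of 0.623 (Benjamini-Hochberg over all protein-coding genes). No gene could therefore pass the threshold of 0.05 in this design.

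The separation depended on the deep vehicle library. Without vehicle replicate 3 it held at 37 members (59.7%), beside 42.3% of all genes. In replicates 1 and 2 alone, both hormone libraries were above both vehicle libraries at 37 members (59.7%), beside 43.3% of all genes. In replicate 3 alone, hormone was above vehicle at 37 members (59.7%), beside 44.9% of all genes. Vehicle was above hormone there at 10 (16.1%), beside 32.3%. Among the vehicle libraries, replicate 3 held the most peaks at 39 members (62.9%), beside 68.8% of all genes. Libraries of the same number are not paired by the labels. Between them, hormone was above vehicle in all 3 replicates at 32 members (51.6%), beside 33.2% of all genes.

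By group means, 49 members (79.0%) had more peaks after hormone and 5 (8.06%) had fewer, beside 63.6% and 20.4% of all genes. The 5 were Ugt3a1, Ugt3a2, Sult1c1, Sult2a6 and Sult6b1, in each of which vehicle replicate 3 held the most peaks. Without that library 50 members (80.6%) had a higher mean and 0 a lower one, beside 78.6% and 1.94% of all genes. The median over members of the mean peak number was 5.17 with hormone and 3 with vehicle, beside 2.33 and 1.33 over all genes. The median difference was 1.83 peaks for members and 0.667 for all genes.

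At least 1 region in at least 2 of 3 hormone libraries lay within 50 kb of 49 members (79.0%), beside 70.2% of all genes. They comprised 18 of 20 UGT, 21 of 22 cytosolic GST, all 3 MGST and 7 of 17 SULT genes. A region in at least 2 of 3 vehicle libraries lay near 44 members (71.0%), beside 49% of all genes. Regions found in all 6 libraries lay near 33 members (53.2%), 15 of them UGT genes, beside 29.1% of all genes. Hormone-only regions lay near 38 members (61.3%), beside 33.2% of all genes. These members comprised 13 UGT, 5 SULT, 18 GST and 2 MGST genes. Neighbouring members share regions. By locus, hormone-only regions lay at 13 of 25 and regions in all 6 libraries at 12, with no matching share computed for loci of all genes. No peak at all lay near 8 members (12.9%, 7 SULT genes and Gstm2-ps1), beside 9.45% of all genes. A further 4 members had peaks in vehicle replicate 3 only.

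In a further version every list was cut to its first 8755 peaks, the length of the shortest list (the order of the lists is the authors', with no stated sort key). The higher numbers after hormone were no longer seen for the 62 genes as a set. The cut makes the total equal in every library, so a gain shared by the whole genome cannot appear in it. The vehicle libraries then held 59, 63 and 56 peaks near members and the hormone libraries 55, 48 and 56. The means were 53 ± 4.36 with hormone and 59.3 ± 3.51 with vehicle (SD, n = 3 each), a difference of -6.33 peaks, and the groups touched at 56. By gene, 14 members (22.6%) had a higher mean after hormone and 29 (46.8%) a lower one, beside 24.4% and 26.8% of all genes. Of the 25 loci, 4 had a higher mean after hormone and 11 a lower one.

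Sult2b1 kept its separation in the shortened lists, with 5, 6 and 5 with vehicle and 8, 8 and 8 with hormone. Ugt1a1 and Ugt1a2 were the other members at which every hormone library remained above every vehicle library. That made 3 members (4.84%), beside 4.03% of all genes. The Ugt1a locus as a whole held 10, 8 and 6 peaks against 9, 7 and 8. Mgst2 and Sult1a1 (3.23% of members) had every vehicle library above every hormone library, beside 1.85% of all genes. Mgst2 held 3, 3 and 4 against 1, 2 and 2, and Sult1a1 held 3, 2 and 2 against 1, 1 and 1. In another version, peak numbers were divided by each library's total, which likewise takes out a gain shared by the whole genome. Every hormone library then lay above every vehicle library at 4 members (6.45%), beside 10% of all genes. They were Gstt1, Gstt4, Gstz1 and Sult1c2. The reverse held at 0 members, beside 1.64% of all genes. These names were singled out after their values were seen.

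**Figure D5:**
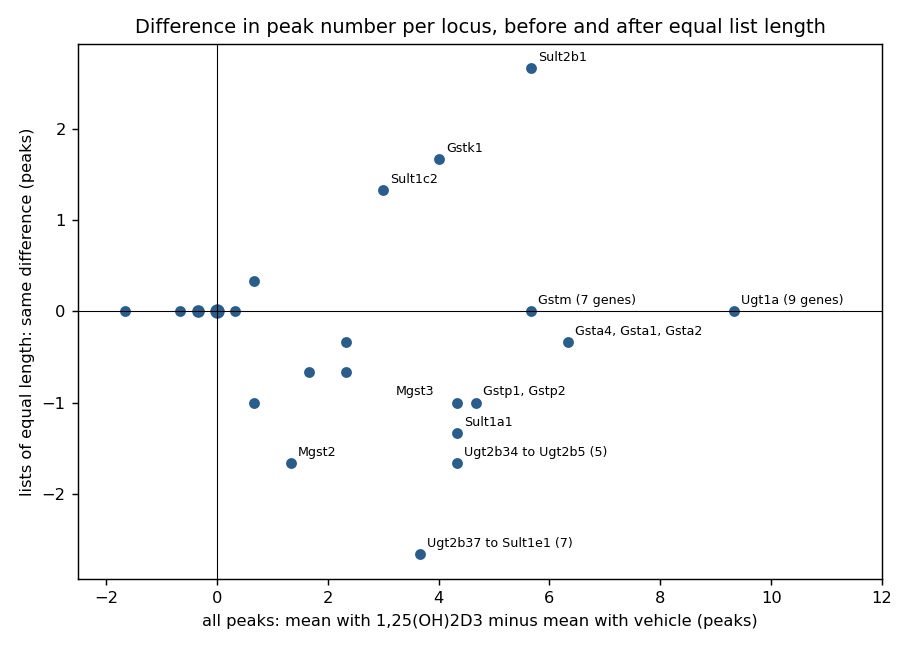
Difference in mean peak number (1,25(OH)2D3 minus vehicle, peaks) at each of the 25 loci, with all peaks on the x axis and with every list cut to its first 8755 peaks on the y axis. Sult2b1, Gstk1 and Sult1c2 lie above 0 on both axes, Ugt1a and Gstm fall to 0 on the y axis, and the locus from Ugt2b37 to Sult1e1 falls to -2.67.

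The 62 genes had 300 merged regions within 50 kb. Of these, 26 (8.67%) were hormone-only and 29 (9.67%) were in all 6 libraries, beside 5.39% and 4.99% of all 87029 regions. Regions seen in a single library made up 44.7% of those near members and 62.6% of all, and 18% and 37.0% were seen in vehicle replicate 3 only. Of the 102 regions near members in all 3 hormone libraries, 76 (74.5%) were also in at least 1 vehicle library, beside 73.8% of all such regions. At most sites with a peak in every hormone library, near members as over the genome, a peak was thus also called in a vehicle library.

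Where the regions lie differed between the classes. Of the 26 hormone-only regions near members, 10 (38.5%) were centred within 1 kb of a start of any protein-coding gene, beside 18.9% of all hormone-only regions. Of the 29 regions in all 6 libraries, 2 (6.90%) were, beside 11.97% of all such regions, and 19 of the 29 lay between genes. In the lists, the regions in all 6 libraries stood at a median position of 88.3 and the hormone-only regions at 59.0, beside 83.6 and 51.0 genome-wide. Among the 147 regions in at least 2 of 3 hormone libraries, 46 lay inside a member's body, and for 95 the nearest start was a member's. The others lie nearer to neighbouring genes of other function.

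Of all genes, 18.8% had a region centred within 1 kb of an annotated start in at least 2 of 3 hormone libraries. Among members, 20 (32.3%) had one. They were Ugt1a9, Ugt1a7c, Ugt1a6b, Ugt1a6a, Ugt2b35, Ugt2a3, Sult1d1, Sult2b1, Sult1a1, Sult1c2, Gstm5, Gstm3, Gstm1, Gstm4, Gstk1, Gsta4, Gstz1, Gstp2, Gsto1 and Mgst2. The same was so for at least 2 of 3 vehicle libraries at 9 members (14.5%), beside 6.38% of all genes. Such a region was hormone-only at Gstm1, Sult2b1, Sult1a1 and Gsto1, which is 4 members (6.45%) beside 4.21% of all genes. It was in all 6 libraries at Mgst2 alone (1.61% of members), beside 2.47% of all genes.

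The windows of 100 bases to each side of a region's centre were searched on both strands for 11 motifs. A DR3 match with at most 1 mismatch was found in 29 of the 147 regions near members, or 19.7% (95% Wilson interval 14.1 to 26.9%), beside 18.7% of all such regions. Among regions in all 6 libraries the share was 34.5% (19.9 to 52.7%) near members and 28.1% overall. Among hormone-only regions it was 23.1% (11.0 to 42.1%) and 20.5%. Each interval covers counting error only and contains the share over all regions.

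Elements of other regulators of these genes were as follows. The antioxidant response element TGACNNNGC, bound by NRF2, was in 15.6% of the 147 regions (10.7 to 22.4%) and 10.8% of all. The core GCGTG of the dioxin response element, bound by the AH receptor, was in 17.0% and 14.3%. DR4 and ER6 matches, the elements of CAR and PXR, were in 12.9% and 5.44%, beside 11.5% and 3.84%. IR0 and IR1 matches were each in 2.04%, beside 2.86% and 3.58%. The AP-1 motif TGANTCA was in 20.4% (14.7 to 27.6%), beside 13.9% of all regions, the single motif whose interval lay above the genome-wide share. Among hormone-only regions AP-1 was in 11.5% near members and 11.2% overall. Among regions in all 6 libraries it was in 20.7% (9.85 to 38.4%) and 13.6%, so neither class shows the same. The AP-1 motif can overlap the antioxidant element, whose first letters it shares. The intestinal motifs GATAAG and TTTATNG, of GATA and CDX factors, were in 13.6% and 12.9%, beside 15.8% and 13.6%. The HNF4 motif CAAAGTCCA was in 0.680% and 2.74%. With 11 motifs searched and no test made, these shares are descriptions.

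Other genes of the conjugation pathways came from a list of 41, of which 40 were found in the annotation. A region in at least 2 of 3 hormone libraries lay near all 16 genes of cofactor supply, and 3 of them had non-overlapping groups. Slc26a2, a sulfate transporter, had 2, 3 and 5 peaks with vehicle and 6, 10 and 9 with hormone. Gclc, the catalytic subunit of the rate-limiting enzyme of glutathione synthesis, had 1, 3 and 5 against 7, 6 and 6. Ggt1, which starts the breakdown of glutathione conjugates, had 3, 4 and 5 against 9, 6 and 11. Papss2, which makes the sulfate donor PAPS, had 2, 4 and 8 against 6, 11 and 11, and Ugdh, which makes UDP-glucuronic acid, had 1, 6 and 4 against 4, 6 and 5. Both of these pairs of groups overlapped.

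Of the 10 other conjugating enzymes, 9 had such a region. All 3 deconjugating genes found had one, and Sumf1, which activates sulfatases, had 0, 3 and 5 peaks against 7, 6 and 9. All 11 receptors and factors of xenobiotic response had one. Nr1i2, which encodes PXR, had 4, 6 and 9 against 7, 9 and 11, and Nfe2l2, which encodes NRF2, had 5, 5 and 9 against 7, 9 and 11, both with overlap. Ahr, the AH receptor, had 0, 1 and 7 against 1, 2 and 2, and its partner Arnt had 3, 2 and 5 against 3, 4 and 2. Their means were lower with hormone, but vehicle replicate 3 held the most peaks at both. Without that library both vehicle means lay below the hormone means. Cdx2, an intestinal transcription factor, had 1, 3 and 4 against 8, 6 and 8, without overlap. Mafg, a small Maf partner of NRF2, had 5, 5 and 5 against 6, 6 and 8, also without overlap. In all, such a region lay near 39 of the 40 genes, and 8 had non-overlapping groups, beside the 70.2% and 16% of all genes given above. Their median of the mean peak number was 4.83 with hormone and 2.67 with vehicle.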

How the data were processed

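Peak lists of the 6 VDR ChIP-seq libraries were used. Per the submitters' processing notes, the authors used Bowtie and HOMER on mm9, with versions not given in the sources used here. Calling was done per library with 1 common input, per the file headers, with limits of 0.001 on the false discovery rate, 4-fold over the input and over the local 10 kb, and a Poisson p of 0.0001. The deposited values are peak start and end positions in bases and a score that is 1 for every peak, so no peak height was available and presence or absence was compared. The single input library, labelled with the 1,25(OH)2D3 dose, entered no comparison of its own.

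On chromosomes 1 to 19, X and Y, a peak was assigned to a gene when its centre lay within 50 kb of its body (GENCODE vM1 on NCBI 37, which is mm9; 0 peaks ran past a chromosome end). Overlaps of at least 1 bp merged peaks into regions. Peak numbers per gene were compared by an exact two-sided permutation test over all protein-coding genes with Benjamini-Hochberg adjustment. Counting, merging, region classes and the DR3 search, but not this test, were checked on simulated data. List position was used in the order of the file, without a stated sort key. Python 3.11.15, numpy 2.4.6 and scipy 1.17.1 were used. Genes named in full were the 3 loci per family with peaks in the most libraries, members with a region within 1 kb of a start, members near a vehicle-only region and loci without peaks. The members, lists and rules were chosen with earlier results of these data known. Alternatives were distances of 10 and 100 kb, lists of equal length, an overlap of 100 bp, division by total peaks, 2 mismatches, the replicate block and leaving out each library. The splits by replicate were added after seeing the data.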

Additional observations from a re-analysis of the deposited data

How the results depend on the processing

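The 49 members near a region shared by 2 or more 1,25(OH)2D3 libraries numbered within 1.5 times of that under all 12 alternatives run, from 39 (equal lists) to 51 (100 kb), and 47 to 49 when any 1 library was dropped. The difference of 61.7 peaks near members per library was 32.7 at a distance of 10 kb and turned to -6.33 with lists of equal length. There the difference also turned at 11 of the 25 loci: the locus from Ugt2b37 to Sult1e1 (-2.67), that from Ugt2b34 to Ugt2b5 and Mgst2 (-1.67 each), Sult1a1 (-1.33), Mgst3, Gstp1 with Gstp2 and Sult5a1 (-1 each), Gsta3 and the Gstt locus (-0.667 each), and Mgst1 and the Gsta4 locus (-0.333 each). The members with non-overlapping groups went from 20 to 3, hormone-only regions from 26 to 4, regions in all 6 libraries from 29 to 18 and vehicle-only regions from 1 to 3. Equal lists hold fewer peaks, and the same total in every library, by construction, and no other cause was tested.

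At 10 kb there were 14 hormone-only regions and 13 in all 6 libraries. An overlap of 100 bp gave 2 vehicle-only regions, division by total peaks left 4 separate members, and 2 mismatches put a DR3 match in 65.3% of regions. Leaving out each library gave a difference of 43 to 84, 20 to 37 separate members, 28 to 42 hormone-only regions, 29 to 45 regions in all libraries left, 1 to 2 vehicle-only regions and a DR3 share of 19.7 to 24.5%. The upper values came without vehicle replicate 3 for the first pair (84 and 37), without 1,25(OH)2D3 replicate 1 for hormone-only regions (42; 41 without vehicle replicate 3) and without vehicle replicate 1 for regions in all libraries. Replicates 1 and 2 alone, added after seeing the data, gave 37 separate members, 46 hormone-only and 2 vehicle-only regions. Replicate 3 alone, also added, gave a difference of 37, 37 members, 100 hormone-only, 78 shared and 63 vehicle-only regions.

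Under the replicate block, in which libraries of the same number are paired, the difference stayed at 61.7. The hormone library was above its partner in every pair at 32 members (51.6%), beside 33.2% of all genes. The labels give no pairing, and same-numbered libraries did not deviate together (correlations of -0.113, 0.000983 and -0.184), so the numbers were not used as pairs. The lists give no tag count per peak, so how depth bears on which sites were called was not tested, and a site without a peak is not shown to be unoccupied.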
